A study of Bos taurus with 6 samples.

Results

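The annotated microRNA (miRNA) precursor loci of cattle (Bos taurus) testis were followed here. They were all entries of the gene table whose name begins with bta-mir, in upper or lower case, and there were 836 of them among 47249 entries. The libraries came from total RNA, depleted of ribosomal RNA, of testis tissue, untreated throughout, from immature calves (3 libraries, age 3 months) and from mature bulls (3 libraries, age 3 years). The values were FPKM, in which fragments are scaled by transcript length and by the mapped fragments of the library. A difference between groups was called by limma on log2(FPKM + 1) where the Benjamini-Hochberg adjusted p over all genes tested was below 0.05 and the log2 fold change reached 1 in size. Groups and replicates are as labelled, and p-values measure the spread between these libraries.

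A miRNA is first made as part of a long primary transcript. The nuclear enzyme Drosha cuts a short hairpin, the precursor, out of that transcript, and Dicer then cuts the hairpin to the mature miRNA that guides Argonaute proteins to target mRNAs. Many hairpins lie inside the introns or exons of protein-coding genes, and others have transcripts of their own or lie in clusters that are transcribed together. Mature miRNAs are too short for a library of this kind, so the fragments over a hairpin come from longer RNA such as the primary transcript or the RNA of a host gene, and no value here is a level of a mature miRNA.

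The markers of the library labelled calf 3 went against its label. The 5 neural markers, of myelin, astrocytes and neurons, summed to 13187 FPKM in it and to between 4.59 and 7.0 FPKM in the other libraries. The 6 Sertoli cell markers summed to 14.8 FPKM in calf 3 against 1786 in calf 1 and 1456 in calf 2, and FSHR, WT1 and GATA4 stood at 0 there. The 4 Leydig cell markers summed to 0.484 FPKM in calf 3 and to at least 1132 in every other library. Results are therefore given with all 6 libraries and, where the call or the size changed, without calf 3. The 3 elongating spermatid markers, among them the protamine PRM1 that packs sperm DNA, summed to 12797 to 14537 FPKM in the bulls and to less than 1 in each calf library. In bulk tissue, fewer cells of a type and less RNA per cell cannot be told apart.

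The entries were of 2 kinds. In 673 of them the entry was the annotated hairpin alone, with hairpins of 46 to 149 bases and a median of 76 bases. In the other 163 entries, 19.5% of all, the table had added transcripts assembled from the reads to the entry, 396 in all and up to 15 in 1 entry, and these entries had a median length of 36149 bases. An entry's FPKM equalled the sum of its transcripts in every library within 0.001, so the value of an extended entry mixes the hairpin with long RNA around it. There were 820 names, because 27 entries shared a name with another entry, as bta-mir-2484 did on X and on an unplaced scaffold. The 4 bta-let-7 entries and 67 entries under MIR symbols, which include mir-34b and mir-34c, are not members.

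Hairpins stood mostly inside other genes. Of the 836 hairpins, 587 (70.2%) lay wholly within another entry of the table and 543 within an Ensembl gene. A further 44 lay only within a locus assembled from the reads, and 249 lay outside all other entries. Among the 543 within an Ensembl gene, 34 lay within an entry named for an Rfam family of RNAs. Chromosome X held 64 members and chromosome 21 held 57. The tables give no strand and no exons, so it cannot be told whether a hairpin is exonic or intronic or on its host's strand, and fragments over a hairpin may belong to either entry.

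Low values had steps, which were read as a measure of depth. Among annotated transcripts under 200 bases, a single FPKM value was shared by 21 to 52 transcripts of different lengths in each library, and the next commonest value, shared by 9 to 16, was its double. Its triple was found in only 2 to 6. The commonest value was read as the FPKM of a mean coverage of 1, and hairpin values were divided by it. Every coverage given here rests on that reading of 1408 to 1587 detected short transcripts a library. By that step an FPKM of 1 was a mean coverage of 14.3 in calf 1, 11.2 in calf 2, 8.09 in calf 3, 15.5 in bull 1, 14.7 in bull 2 and 12.0 in bull 3. Calf 3 was the shallowest library by this step, at 0.565 of the depth of calf 1. The study's counts of clean reads put calf 2 lowest instead, and calf 3 nearer to calf 1. The reason for this was not tested. A hairpin detected in a library had a median coverage of only 1.0 to 1.85, and 37.8 to 44.9% of detected hairpins had a mean coverage below 1.

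Fewer hairpins were detected in every bull library than in any calf library. The hairpin transcript had an FPKM above 0 in 495 of 836 members in calf 1, 483 in calf 2, 484 in calf 3, 419 in bull 1, 441 in bull 2 and 405 in bull 3. At a mean coverage of at least 1 the counts were 308, 288 and 300 in calves and 244, 250 and 223 in bulls. All calf libraries lay above all bull libraries, with a bull minus calf difference of -59.7 hairpins between the means and p = 0.1 in an exact two-sided permutation test, which is the smallest p that 3 against 3 allows. A coverage of 1 is a different FPKM in each library. With every library held to the FPKM of that coverage in calf 3, the counts were 253, 233 and 300 in calves and 167, 169 and 177 in bulls, and the difference was -91.0 (exact permutation p = 0.1). The 300 was the count of calf 3 itself. Without that library the difference is smaller in size, and calf 1 and calf 2 still lie above every bull. At a mean coverage of at least 5 the means were 127 ± 19.4 in calves and 76.7 ± 5.85 in bulls (SD, n = 3 each, exact permutation p = 0.1). Taking whole entries in place of hairpins, more of the 163 extended entries were above 0 in bulls. They numbered 142, 150 and 138 in calves and 153, 152 and 151 in bulls (exact permutation p = 0.1). Over both kinds of entry together, 560 ± 3.51 in calves and 499 ± 15.0 in bulls were above 0, fewer in bulls (SD, n = 3 each, exact permutation p = 0.1).

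The table as a whole went the other way, with 27164 to 32151 entries above 0 in calves and 38251 to 38975 in bulls. The other annotated loci under 200 bases, 2215 in number, also had fewer detected loci in bulls, with 681 to 724 at a coverage of 1 in calves and 610 to 655 in bulls. The share of hairpin-only entries at that coverage was 1.3 ± 0.0276 times the share of these other short loci in calves and 1.13 ± 0.0525 times in bulls (SD, n = 3 each, exact permutation p = 0.1), and the groups did not overlap.

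**Figure D1:**
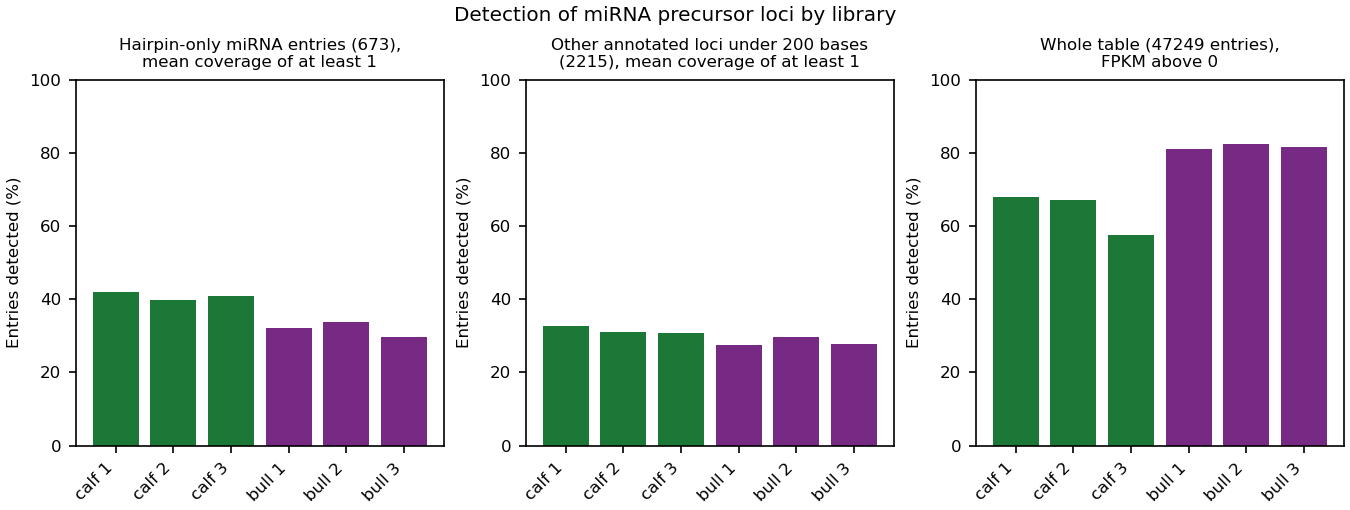
Share of entries detected (%) in each library, for hairpin-only miRNA entries and other annotated loci under 200 bases at a mean coverage of at least 1, and for the whole table at an FPKM above 0; each bar is 1 library (green calf, purple bull). Between 200 and 227 of 673 hairpin-only entries reached that coverage in bulls and 268 to 283 in calves, while the whole table had more entries above 0 in bulls.

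Hairpins inside genes were fewer in bulls by each measure of the hairpin itself. Of the 543 hairpins within an Ensembl gene, 250, 237 and 248 reached a coverage of 1 in calves and 190, 202 and 180 in bulls (exact permutation p = 0.1). Of the 249 outside other genes, 51, 46 and 48 did so in calves and 49, 40 and 36 in bulls, and these groups overlapped (exact permutation p = 0.3). By other measures the groups were apart. The hairpin had an FPKM above 0 in 112, 105 and 96 of them in calves and in 89, 90 and 87 in bulls, and at the calf 3 threshold 39, 35 and 48 stood against 32, 23 and 26. Neither of these pairs of groups overlapped (exact permutation p = 0.1 for each), whereas at a coverage of 5 they did. The difference between hairpins inside and outside genes was not tested. Extended entries had 20 to 27 hairpins at a coverage of 1 in every library.

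Hairpins carried little RNA per length beside their hosts, and less so in bulls. For 286 hairpin-only entries with 1 named host at an FPKM of at least 1 in every library, the median hairpin FPKM was 1.33% of the host's in calf 1, 1.22% in calf 2 and 1.91% in calf 3. The medians were 0.460%, 0.483% and 0.394% in the bulls. All bull medians lay below all calf medians. In each library 2 of these hairpins had a higher FPKM than their host.

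In calves 69, 82 and 134 entries reached an FPKM of 1, and in bulls 66, 74 and 75 did. The count of 134 belonged to calf 3, where an FPKM of 1 stood for the lowest coverage, and without that library the bull minus calf difference of the means went from -23.3 to -3.83 entries. The summed FPKM of all members was 10728 in calf 1 and 4332 in bull 1 but only 599 to 695 in the other libraries. One extended entry, bta-mir-2887-1, made that difference, with 10311 FPKM in calf 1, 271 in calf 2, 33.7 in calf 3, 3710 in bull 1, 14.4 in bull 2 and 66.3 in bull 3. Its hairpin itself had a mean coverage below 1 in each library. Without this entry the sums were 416, 423 and 565 FPKM in calves and 621, 654 and 606 in bulls (exact permutation p = 0.1). The hairpin transcripts alone did not have this order. They summed to 310, 303 and 404 FPKM in calves and 296, 331 and 301 in bulls, and these overlapped (exact permutation p = 0.5).

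Of the 836 members, 75 reached an FPKM of 1 in 3 or more libraries and were tested, and 121 stood at 0 in all 6 libraries. Of those tested, 23 were called higher in bulls and 7 lower, against 35.7% of all 18115 tested genes higher and 9.61% lower. As shares these are 30.7% and 9.33% of the tested members, near those of all genes, with a median log2 fold change of 0.22 beside 0.43 over all genes. The groups did not overlap, higher in bulls, for 29 of the 75 (46.1% of all genes) and, lower in bulls, for 18 (21.3% of all genes). Without calf 3 the counts were 22 higher and 7 lower (37.9% and 13.6% of all genes), of which 22 and 5 were also called with it. The split turned with the scaling. Quantile normalization, which moved the median of all genes to -0.26, called 5 of the 75 members higher and 27 lower. All 18115 genes then split into 3827 higher and 4538 lower. In that fit the share of members called higher was below that of all genes, and the share called lower was above it.

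Calls fell on entries of both kinds. Of the 45 extended entries tested, 18 (40.0%) were called higher and 2 (4.44%) lower, near the 35.7% and 9.61% of all genes, and assembled transcripts made up a median of 98.4% of their FPKM. In 42 of these 45 the hairpin itself stayed below an FPKM of 1 in every library. Of the 30 hairpin-only entries tested, 5 were called higher and 5 lower, 16.7% in each direction, with a median log2 fold change of -0.33. The difference between the kinds was not tested. In quantile-normalized values 2 of these 30 were called higher and 16 lower, and 3 of the 45 extended entries higher and 11 lower. All genes then had 3827 higher and 4538 lower of 18115.

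**Figure D2:**
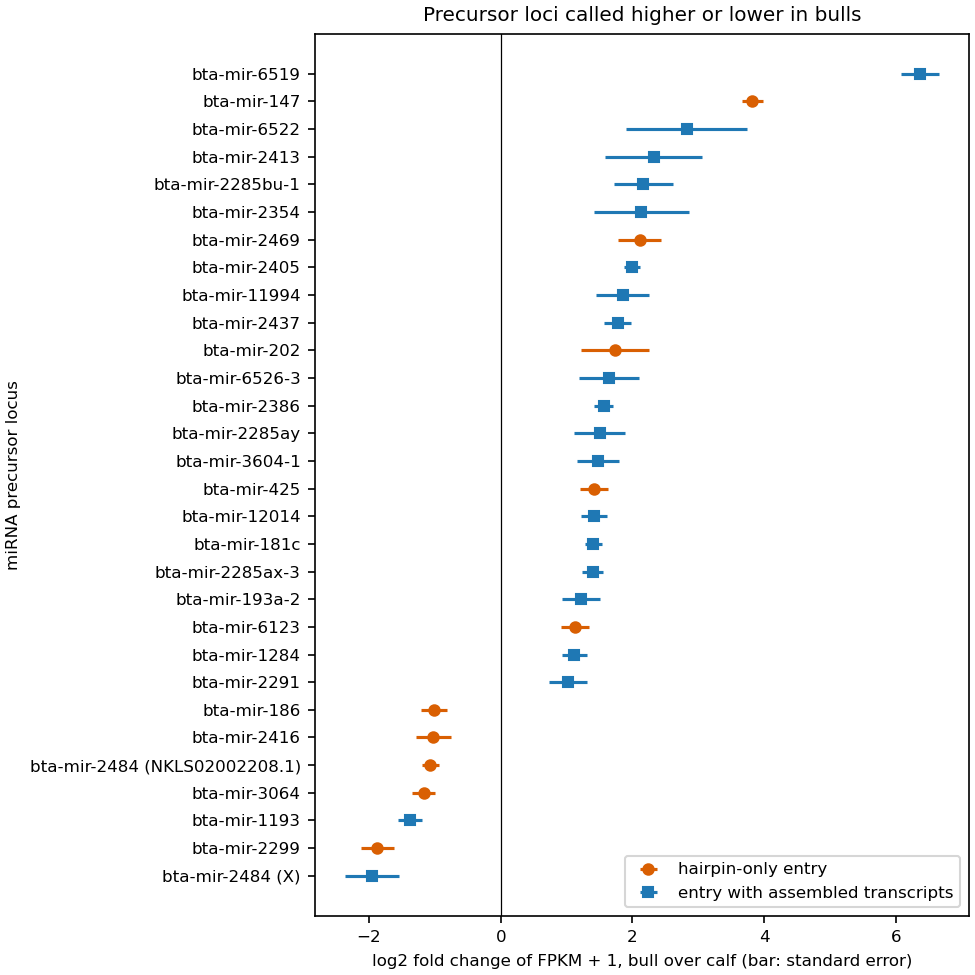
Log2 fold change of FPKM + 1, bull over calf, for the 30 called loci, with bars of 1 standard error (limma, 3 libraries a group); circles are hairpin-only entries and squares are entries with assembled transcripts. The points run from -1.96 for bta-mir-2484 on X to 6.37 for bta-mir-6519, and 18 of the 23 higher loci are squares.

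Of the 30 hairpin-only entries tested, bta-mir-147 had the largest rise. It lies at chr10:65015857-65015936, inside C10H15orf48, the cattle counterpart of human C15orf48, whose product is a small mitochondrial protein. Its FPKM was 3.88, 3.98 and 5.14 in calves and 72.9, 80.3 and 69.2 in bulls, so that every bull lay far above every calf. These values stand for a mean coverage of 41.6 to 55.6 in calves and 832 to 1179 in bulls. The log2 fold change was 3.82 with a standard error of 0.16 (limma, adjusted p = 1.38e-05), and it stayed past the threshold with quantile normalization at 3.18. The host C10H15orf48 rose as well, from 1.73 ± 0.416 to 16.7 ± 1.3 FPKM (SD, n = 3 each), with a log2 fold change of 2.70 (limma, adjusted p = 8.39e-05). Per length the hairpin thus stood above its host in both groups.

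The hairpin of bta-mir-202, a miRNA known from gonads, lies at chr26:25761610-25761708 within the entry of SORCS3, a sorting receptor. The calves had 1.67, 3.13 and, in calf 3, 0 FPKM, and the bulls had 6.15, 6.93 and 6.10. The hairpin was detected in all 5 libraries with testis markers and was highest in bulls. The log2 fold change was 1.73 with a standard error of 0.52 (limma, adjusted p = 0.0307) with all libraries and 1.15 (adjusted p = 0.0031) without calf 3, while quantile normalization gave 1.12 (adjusted p = 0.0776). The call was also lost with calf 1 or any 1 bull left out, at adjusted p of 0.0577 to 0.0949. SORCS3 rose from 1.18 ± 0.241 to 17.7 ± 1.24 FPKM (SD, n = 3 each).

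The hairpin of bta-mir-2469 lies at chr8:11522207-11522273, where TOPORS, a ubiquitin and SUMO ligase, overlaps the assembled locus XLOC_236184. Its FPKM was 11.1, 12.9 and 6.05 in calves and 49.1, 55.0 and 33.3 in bulls, with a log2 fold change of 2.11 and a standard error of 0.33 (limma, adjusted p = 0.0022). Its level in bulls was above those of both entries around it. TOPORS did not pass, with 17.0 ± 5.94 and 23.6 ± 2.70 FPKM (SD, n = 3 each), and XLOC_236184 rose by a log2 fold change of 2.14 (limma, adjusted p = 0.000128).

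The hairpin of bta-mir-425 lies within NDUFAF3, an assembly factor of respiratory complex I, at chr22:50971462-50971548. Its FPKM was 0.686, 0.526 and 0.236 in calves and 2.37, 4.04 and 2.58 in bulls, with a log2 fold change of 1.42 (limma, adjusted p = 0.002). NDUFAF3 rose with it, by 2.11 on the log2 scale. With quantile normalization the hairpin stood at 0.47 and was not called. The hairpin of bta-mir-6123, at chr13:57550668-57550749, had FPKM values of 0.482, 0.363 and 0 in calves and 1.52, 1.46 and 2.40 in bulls. Its log2 fold change was 1.13 (limma, adjusted p = 0.00472) but 0.96 without calf 3, just short of the size required, and 0.08 with quantile normalization. The imprinted gene GNAS around it, which encodes a stimulatory G protein subunit, fell from 11.9 ± 8.87 to 2.18 ± 0.488 FPKM (SD, n = 3 each), whereas the assembled locus XLOC_048543 over the same hairpin rose from at most 1.22 in calves to at least 14.4 in bulls.

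**Figure D3:**
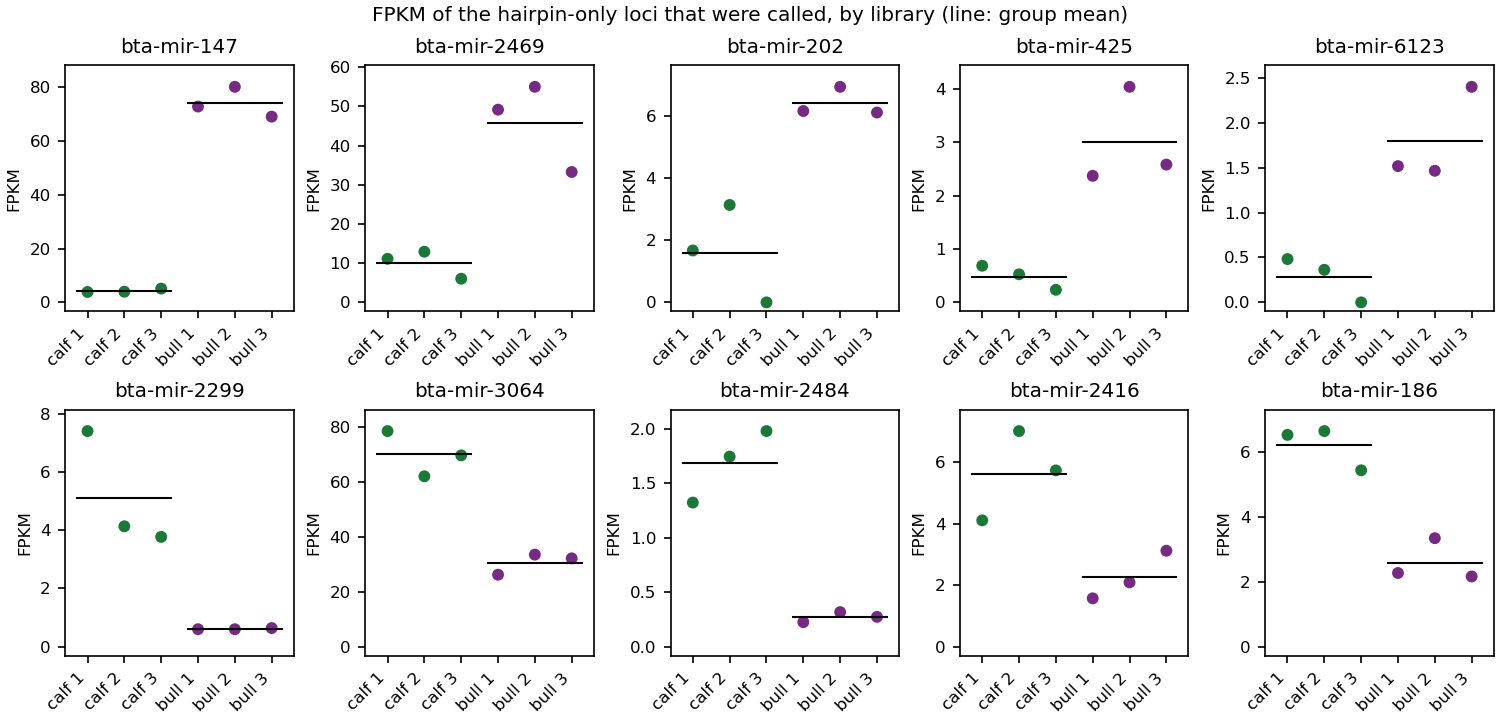
FPKM in each library of the 10 hairpin-only loci that were called, the 5 higher ones in the upper row and the 5 lower ones in the lower row; points are libraries (green calf, purple bull) and lines are group means. In all 10 panels the 3 bull points and the 3 calf points do not overlap, and bta-mir-202 and bta-mir-6123 stand at 0 in calf 3.

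Of the hairpin-only entries called lower, bta-mir-3064 had the highest level. It lies at chr19:48680498-48680581 inside DDX5, an RNA helicase that takes part in Drosha processing. Its FPKM was 78.4, 62.0 and 69.6 in calves and 26.2, 33.5 and 32.1 in bulls, so that the bulls held less than each calf. The hairpin fell by 1.17 on the log2 scale with a standard error of 0.17 (limma, adjusted p = 0.00181). DDX5 had 127 ± 24.0 FPKM in calves and 235 ± 15.8 in bulls (SD, n = 3 each), a log2 difference of 0.89 that did not reach the size required for a call, so the signs of hairpin and host were opposite.

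The hairpin of bta-mir-2299, at chr12:29635268-29635346, fell by 1.87 on the log2 scale (limma, adjusted p = 0.00113). Its FPKM was 7.40, 4.13 and 3.77 in calves and 0.599, 0.599 and 0.639 in bulls. Its host B3GLCT, a glucosyltransferase that modifies secreted proteins, fell with it, from 16.8 ± 5.17 to 2.07 ± 0.160 FPKM (SD, n = 3 each). The copy of bta-mir-2484 on the unplaced scaffold lies in RBMX, an X-linked RNA-binding protein gene in mammals. This hairpin had 1.32, 1.75 and 1.98 FPKM in calves and 0.225, 0.317 and 0.274 in bulls, and RBMX fell from 56.5 ± 3.16 to 12.2 ± 2.13 FPKM (SD, n = 3 each). The extended copy of bta-mir-2484 on X was also lower, by a log2 fold change of -1.96 (limma, adjusted p = 0.00754). The hairpin shares its name with the scaffold copy, and reads of both copies may be split between them.

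The hairpins of bta-mir-186, in ZRANB2, and of bta-mir-2416, in MACF1, were called lower near the required size, at -1.01 and -1.02 on the log2 scale. That of bta-mir-2416 also lies within the Rfam entry RF00004, so its fragments may belong to that RNA. ZRANB2, a splicing regulator, had a log2 difference of -0.68 and MACF1, a cytoskeletal linker, one of -1.13 (limma, adjusted p = 0.0661), and neither was called. Without calf 3 the hairpin of bta-mir-2416 stood at -1.0 and that of bta-mir-2484 on the scaffold at -0.99, and neither was then called. With array weights both stood at -0.99 and were not called. The call of bta-mir-2416 was also lost without calf 2, bull 1 or bull 2 (limma, adjusted p = 0.0584 to 0.0705). That of bta-mir-186 was lost without calf 1, calf 2, bull 1 or bull 3, at -0.98 to -0.93 on the log2 scale.

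Across 16 tested hairpin-only entries with 1 tested named host, hairpin and host were both called higher for 3 and both lower for 2, and called in opposite directions for 1, bta-mir-6123. These counts are those with all libraries. Without calf 3 the hairpin of bta-mir-6123 was not called, nor was that of bta-mir-2484 on the scaffold, which is in a pair called lower. Of the 5 hosts called higher, 2 held a hairpin that was not called. PPP6R1, a regulatory subunit of protein phosphatase 6, rose by a log2 fold change of 2.16 while bta-mir-7865 within it had a log2 difference of -0.05. DNAAF2, an assembly factor of dynein arms, rose by 1.90 while bta-mir-6517 had 0.67. On a wider set of hairpins, those at a coverage of at least 1 in at least 3 libraries, 41 lay in hosts called higher and 28 of these 41 had a lower mean in bulls. So did 26 of 29 in hosts called lower and 107 of 122 in hosts not called.

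**Figure D4:**
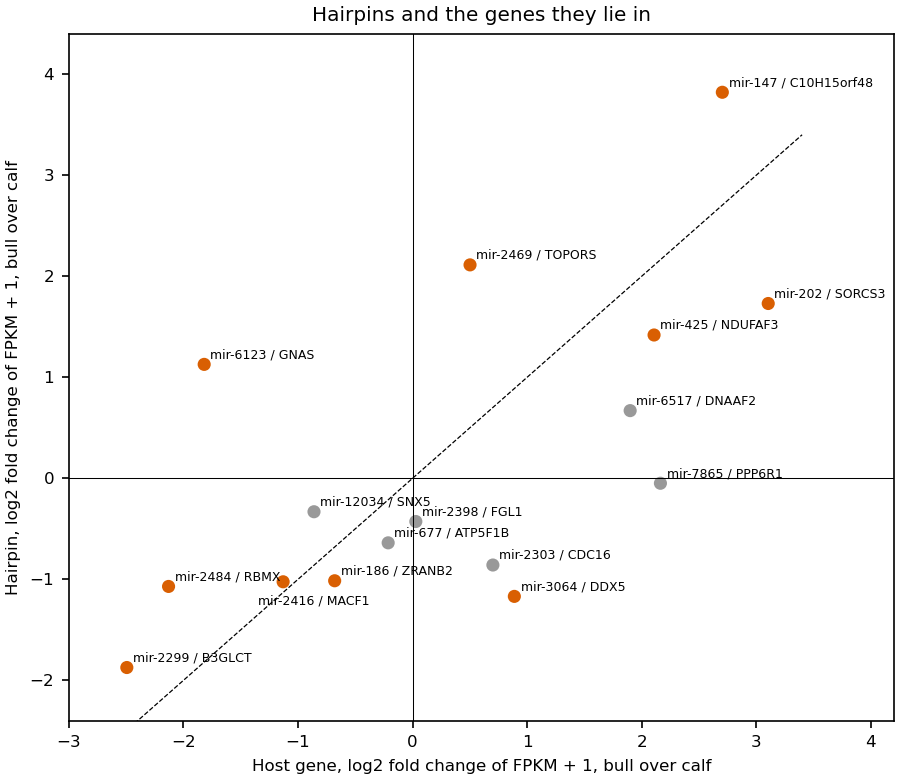
Log2 fold change of FPKM + 1, bull over calf, of 16 hairpin-only entries (vertical) against the gene each lies in (horizontal); orange points are hairpins called with all 6 libraries, grey points were not called and the dashed line marks equal changes. bta-mir-147 and bta-mir-2469 lie above the line, and bta-mir-3064 and bta-mir-7865 lie well below it.

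The extended entries were led by bta-mir-6519, at chr15:83332937-83406381, an entry that overlaps MS4A13. It had 0.257, 0.461 and 0.0733 FPKM in calves and 144, 103 and 72.2 in bulls, with a log2 fold change of 6.37 and a standard error of 0.29 (limma, adjusted p = 1.75e-05). Assembled transcripts made up nearly the whole value, and the hairpin itself had a mean coverage below 0.02 in each library. The entry of bta-mir-6522, which overlaps NPAS3, a neuronal transcription factor, had 0.877 and 1.19 FPKM in calf 1 and calf 2, 18.5 in calf 3 and 23.4, 36.4 and 29.9 in bulls. That of bta-mir-2354, in the kinesin gene KIF5C, had 0.0856 and 0.173 in calf 1 and calf 2, 5.5 in calf 3 and 6.37, 7.45 and 10.3 in bulls, and its hairpin stood at 0 in all 6 libraries. Both entries were therefore higher in calf 3 than in the other calves, and their log2 fold changes rose from 2.82 to 3.91 and from 2.14 to 2.98 without it. With any other 1 library left out neither was called.

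Another extended entry of the higher set was bta-mir-2413, with 10.2, 14.2 and, in calf 3, 1.15 FPKM in calves and 30.8, 31.6 and 43.2 in bulls. Its log2 fold change of 2.32 (limma, adjusted p = 0.0379) was 1.45 (adjusted p = 0.000863) without calf 3. The call was lost with calf 1 or any 1 bull left out, with a replicate block, with a pseudocount of 0.1, with no filter and with quantile normalization, at adjusted p of 0.0502 to 0.12. The entry of bta-mir-2405 had 0.0912 ± 0.0321 and 3.37 ± 0.389 FPKM (SD, n = 3 each). Those of bta-mir-2285bu-1, bta-mir-11994 and bta-mir-2437 had log2 fold changes of 2.16, 1.85 and 1.78. The entries of bta-mir-3604-1 in DNM2, bta-mir-181c in NANOS3 and bta-mir-2285ax-3 in SPATA7, named after their values were seen, were called higher together with those hosts. For bta-mir-181c the assembled transcript that made up 99.2% of the entry did not span the hairpin, which stood at 0 in each bull, so the call is that of RNA beside it. NANOS3 is a germ cell RNA-binding protein, and its entry rose by a log2 fold change of 2.44.

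Hairpins of the DLK1-DIO3 domain were lower in bulls as a group. The domain is an imprinted region on chromosome 21 of cattle where a large group of miRNAs is made from the maternal chromosome. The list drawn up for it matched 32 members, 30 of them between 65778717 and 65955413 on chromosome 21. Of the 32 hairpins, 31, 28 and 26 had an FPKM above 0 in calves and 9, 13 and 10 in bulls. The summed mean coverage of the list was 151, 64.4 and 56.2 in calves and 5.16, 19.5 and 4.43 in bulls. All calf sums lay above all bull sums. For 19 of the 32 hairpins (59.4%) the bulls lay below all calves, against 16.3% of all members' hairpins, 14.9% of the other short loci and 13.4% of all entries of the table. In the other direction the shares were 3.59%, 2.75% and 35.6%, and 0 hairpins of the list. Without calf 3 the count was 23 of 32 (71.9%), against 23.9% of all members' hairpins and 21.8% of all entries, and higher in bulls the shares were 6.46% and 40.5%. Hairpins this close together may share a transcript, so the shares of the list do not count separate observations. The list was chosen with earlier results of these data known. Only 1 entry of the list passed the filter on low values, so the others have no test of their own.

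Within the domain the hairpin of bta-mir-376d had a mean coverage of 20.1, 12.4 and 5.0 in calves and 0, 2.15 and 1.02 in bulls. That of bta-mir-379 had 7.81, 3.79 and 6.26 in calves and 0 in every bull, and that of bta-mir-370 had 9.16, 3.00 and 3.59 in calves and 0 in every bull. These 3 were chosen after their values were seen. On chromosome 21, 11 of the 30 hairpins stood at 0 in all 3 bulls, and 27 were above 0 in both calf 1 and calf 2. The order did not hold for each hairpin, since bta-mir-654 had 6.0 in bull 2 and only 0.908 in calf 2. The one tested entry, bta-mir-1193, is extended and fell by 1.38 on the log2 scale, from 1.74 ± 0.627 to 0.0370 ± 0.0174 FPKM (SD, n = 3 each; limma, adjusted p = 0.00121).

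The neighbours showed the same order. XLOC_124746, an assembled locus that holds 5 of these hairpins, had 3.77, 2.74 and 4.49 FPKM in calves and 0.0359, 0.0697 and 0.0585 in bulls, and it fell by 2.13 on the log2 scale (limma, adjusted p = 0.00014). RTL1, a retrotransposon-derived gene expressed from the paternal chromosome, had 0.466, 0.793 and 0.281 in calves and at most 0.0570 in bulls. DLK1, a paternally expressed Notch-related membrane protein, had 22.2 and 13.0 FPKM in calf 1 and calf 2 but 0.681 in calf 3, beside 0.278 to 0.540 in bulls. Hairpins of the domain were thus detected in calf 3 at a low level of DLK1. Neither RTL1 nor DLK1 passed the filter.

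**Figure D5:**
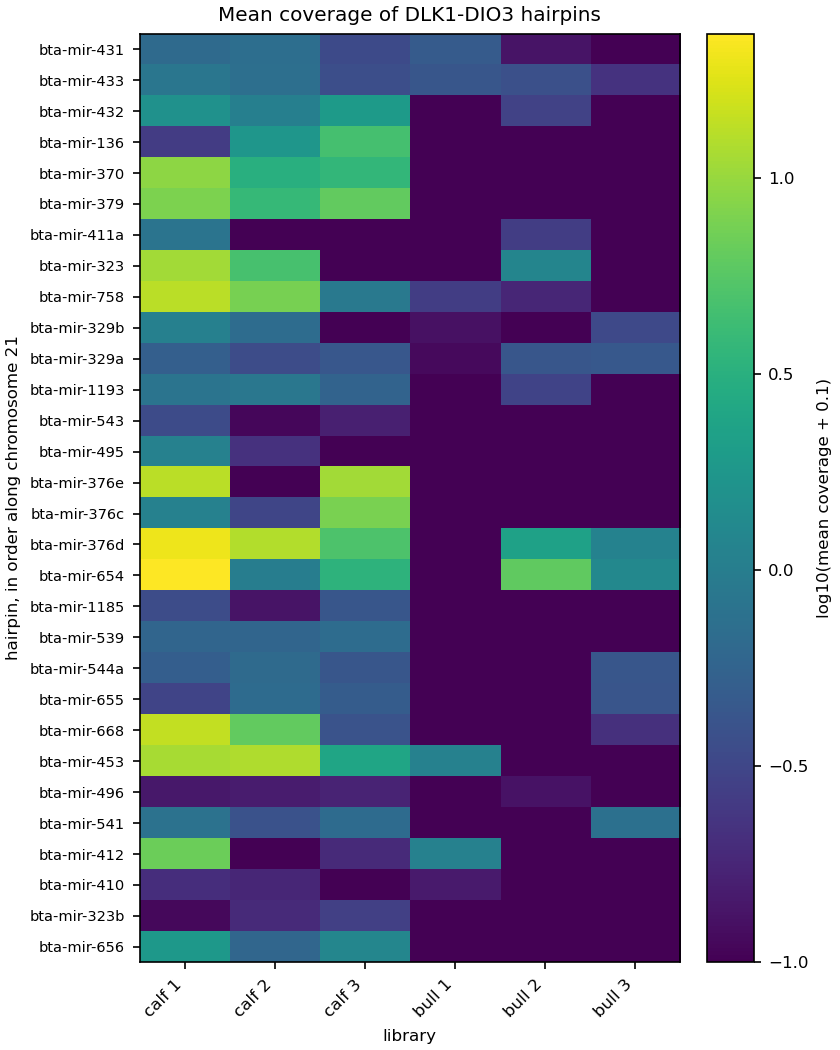
Mean coverage, as log10(coverage + 0.1), of the 30 DLK1-DIO3 hairpins of chromosome 21 (rows, in order along the chromosome) in the 6 libraries (columns). Of the 30 hairpins, 25 to 30 were above 0 in each calf library and 8 to 11 in each bull library, and the darkest cells are hairpins at or near 0.

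In the mir-17-92 cluster and its paralogs, miRNAs known for promoting proliferation, 9 members were found and 1 was tested. The hairpin of bta-mir-19a had 8.47 and 6.16 FPKM in calf 1 and calf 2, 0.375 in calf 3 and 0.969, 3.04 and 1.99 in bulls. It was not called with all libraries, at -0.66 on the log2 scale (limma, adjusted p = 0.498), and was called lower without calf 3, at -1.52 (adjusted p = 0.00546). Without calf 3 the bulls lay below both calves for 3 of the 9 hairpins (33.3%, against 23.9% of all members), and with it for 0. The hairpin of bta-mir-17 beside it had a mean coverage of 36.4, 24.6 and 3.94 in calves and 6.43, 8.75 and 11.1 in bulls.

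The bovine mir-2284 and mir-2285 family had the largest number of members, 179, of which 43 were extended. Its hairpins reached a mean coverage of 1 in 46, 44 and 56 cases in calves and 35, 41 and 31 in bulls. For 21 of the 179 (11.7%) the bulls lay below all calves, less than the 16.3% of all members. Of 6 entries tested 3 were called higher and 0 lower, all 3 of them extended. The other 3 were not called, among them bta-mir-2285j-2 at 0.24 and bta-mir-2285cw-1 at -0.64 (limma, adjusted p = 0.72 and 0.12).

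Members known from other roles or cell types were scarce. The meiotic germ cell list, of mir-449 hairpins, matched 4 members, and the hairpins of 3 of them lie in CDC20B. For bta-mir-449b and bta-mir-449c all calves stood at 0 and all bulls above 0, yet with a mean coverage of at most 0.125. That of bta-mir-449a was at most 0.00525 in bulls and 0 in calves. The hairpin of bta-mir-449d, on another chromosome, had 0.8 in calf 2 and 0.707 in bull 3 and 0 elsewhere, so the summed coverage of the list in calf 2 was above that in bull 1 and bull 2. Of the families that the study names, bta-mir-204 had a mean coverage of 0.137 to 0.596 in all 6 libraries, and bta-mir-34a 3.49, 0 and 0.0561 in calves and 2.58, 1.42 and 0.143 in bulls. The hairpin of bta-mir-532 stood at 0 in 5 libraries and at a coverage of 0.837 in calf 1. None of these 3 passed the filter on low values, so whether they differ between the groups was not tested.

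On chromosome X the 64 members had 17, 18 and 11 hairpins at a coverage of 1 in calves and 10, 7 and 8 in bulls (exact permutation p = 0.1). The 7 X-linked hairpins of the CLCN5 cluster had at most 2 at that coverage in a library. Of the 20 other X-linked hairpins listed, the bulls lay below all calves for 5 (25.0%, against 16.3% of all members) and, without calf 3, for 10 (50.0%, against 23.9%).

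Among the lists for other cell types, the 9 blood and immune members held 1 tested entry, that of bta-mir-142, a miRNA made in blood cells. The entry is extended, and the assembled transcript that made up 94.3% of its FPKM did not span the hairpin. The entry had 2.23 ± 0.797 FPKM in calves and 0.808 ± 0.307 in bulls (SD, n = 3 each) and was called lower without calf 3, at -1.04 on the log2 scale (limma, adjusted p = 0.00211), against -0.82 with it. Its hairpin had a mean coverage of 1.59, 1.0 and 0 in calves and 1.33, 2.69 and 0.621 in bulls, and these overlapped. In the same list bta-mir-146b had a mean coverage of 0, 0.123 and 0 in calves and 8.0, 8.66 and 5.14 in bulls, and was not tested. Of the 9 stromal members, bta-mir-143 of smooth muscle had 2.40 ± 0.545 and 1.25 ± 0.407 FPKM (SD, n = 3 each; limma, adjusted p = 0.0502). For 1 of these 9 hairpins the bulls lay below all calves, and for 6 (66.7%, against 23.9% of all members) without calf 3. The muscle list (4 members), the epithelial list (5), the endothelial list (1) and the liver list (1) had no tested entry, and the liver member stood at 0 in all libraries.

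The neural list had 19 members and none was tested. Its hairpins summed to a mean coverage of 45.4 in calf 3, 19.0 in calf 1 and 4.49 to 4.78 in the other 4 libraries. In calf 3 bta-mir-338 had a coverage of 18.0 and stood at 0 elsewhere, and bta-mir-219-1, a miRNA of myelinating cells, had 19.3, beside 2.0 in calf 1 and 0 elsewhere. Both were chosen after their values were seen, and they made up most of the calf 3 sum. The rest of the list summed to less in calf 3 than in calf 1. Among all members the entries lowest in calf 3 beside calf 1 and calf 2 were bta-mir-2887-1, bta-mir-4444, bta-mir-10b, bta-mir-2413 and bta-mir-19a, and the highest were bta-mir-6522, bta-mir-2354, bta-mir-2285o-1, bta-mir-2375 and bta-mir-2350. The hairpin of bta-mir-4444 had 12.7 and 15.8 FPKM in calf 1 and calf 2, 0.0206 in calf 3 and 14.2, 18.6 and 16.3 in bulls. The entry of bta-mir-10b, a miRNA of the HOXD region, had 7.83, 4.99 and 0 FPKM in calves and 0.363 to 0.984 in bulls.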

How the data were processed

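Both deposited tables, of genes and of transcripts, hold FPKM that the authors computed, with 1 column per library. By the study's methods, reads matching ribosomal RNA were removed with Bowtie2, the rest mapped with TopHat2 and transcripts assembled with StringTie. The methods name Cuffdiff for levels of circular RNAs but do not say which tool made these FPKM of genes. The methods name the assembly UMD 3.1.1, yet 772 of 822 members matched by name lie at the same position in the RefSeq table of ARS-UCD2.0. Coordinates are those of the deposited tables.

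FPKM were tested as log2(FPKM + 1) by limma (3.58.1, R 4.3.3) with a trend, for genes whose FPKM reached 1 in 3 or more of the 6 libraries. The test was run on simulated data first. It called 100 of 200 genes that had been changed by 2 on the log2 scale, each in the right direction, and 8 unchanged genes. A locus or host that was not called may therefore still differ. Counts per library were compared by exact two-sided permutation tests. A host was an entry that holds the whole hairpin, without let-7 and MIR entries. Where hairpins were paired with hosts, entries named for an Rfam family were not taken as hosts. Named loci were the called ones with the largest changes, the 10 highest levels, the tested list members, mir-204, mir-532 and mir-34, and those most unlike in calf 3. Members and lists were chosen with earlier results of these data known. FPKM give no read counts, so intervals for counting error were not computed. In the comparison of hairpins with their hosts, 1 pair is not reported here and was left out of the counts and the plot. The counts of pairs called alike or in opposite directions do not depend on it.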

Additional observations from a re-analysis of the deposited data

How the results depend on the processing

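Of the 23 entries called higher, quantile normalization kept 5 and called no other, and of the 7 called lower it kept 7 in a total of 27. Counting the hairpin transcript only, an alternative chosen after seeing the data, left 5 higher and 5 lower among 30 tested. No extended entry passed the filter by its hairpin. These 30 are thus the hairpin-only entries of the main fit with the same values, and this fit is no separate check. Leaving out 1 library gave 15 to 22 higher and 5 to 8 lower, with the lowest higher count of 15 without bull replicate 3. The replicate numbers were not taken to pair the samples. Same-numbered libraries had correlations of only 0.028, 0.025 and 0.034, although each correlated best with its own number. Such small values cannot settle whether the numbers mark a pair or a batch. The fit with a replicate block called 22 higher and 7 lower. Of the same 75, array weights called 22 higher and 7 lower, and a pseudocount of 0.1 called 23 and 10. A filter at an FPKM of 0.1 called 24 higher and 9 lower of 366 members tested. All genes then had 7219 higher and 1788 lower of 31442. With no filter but an FPKM above 0 in 1 library, 19 and 9 of 715 members were called. All genes then had 6984 and 1581 of 44657. In these last fits members were called less often than all genes in each direction.

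The difference in entries above 0 was -61.7 and -69.3 to -54.3 with 1 library left out. For an FPKM of at least 1 it was -36.3 to -3.83, and at least 10 reversed it to 3.33. The difference in the log2 sum of FPKM was -0.40 with all members and 0.44 without bta-mir-2887-1. For hairpin transcripts alone it was -0.12. With all members and 1 library left out it ran from -1.30 to 0.95. Loci not called also changed sign. With 1 library left out bta-mir-2887-1 ran from -3.83 to 0.69, bta-mir-2315 from -0.50 to 0.67, and bta-mir-2285j-2 from -0.13 to 0.86. bta-mir-2315 was 0.0098 with a pseudocount of 0.1 and 0.65 with array weights, and bta-mir-2285j-2 was -0.47 with quantile normalization. Of the hosts, with 1 library left out, RAD52 ran from -0.36 to 0.12, SERF2 from -0.18 to 0.74, and the 2 TRPM3 entries from -0.15 to 1.44 and from -0.49 to 0.29. With array weights CLCN5 was 0.0036, RAD52 0.11, SERF2 -0.14 and the second TRPM3 entry 0.28. With quantile normalization TOPORS was -0.17, the first TRPM3 entry -0.14, SNPH -0.067 and SERINC4, called higher otherwise, -0.15. The cause of these changes was not tested.

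FPKM give no counting error, and hairpins below a mean coverage of 1 set the limit of detection.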
